A study of Mus musculus with 6 samples.

Results

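The colony-stimulating factor receptors are the receptors through which myeloid cells sense the cytokines that make and maintain them. Here they were followed as the 5 receptor genes Csf1r, Csf2ra, Csf2rb, Csf2rb2 and Csf3r together with Csf1, the gene of the ligand in which the cells were grown. The 6 genes were chosen by symbol, without using any measured value, from the 52550 genes of the deposited count table. All 6 passed the filter on low counts, and so did 16287 genes in all.

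RNA-seq was performed on bone marrow-derived macrophages (BMDMs) of C57BL/6 mice, with 3 libraries from GIT1 CKO mice and 3 from their GIT1 fl/fl controls, which the labels call CWT. GIT1 is a scaffold and ARF GTPase-activating protein, and the study asked what its loss does to the transcriptome of LPS-activated macrophages. In GIT1 CKO mice the floxed gene is deleted by Cre recombinase under the control of the Lyz2 promoter, which is active in macrophages and granulocytes, so only this group carries Cre, whereas both groups carry the floxed alleles. Bone marrow cells of both groups had been grown for 7 days in 25 ng/mL M-CSF, the protein encoded by Csf1, and both groups then received 100 ng/mL LPS for a time that was not given in the sources used here. No library without LPS or without M-CSF was analysed, so that every level below is a level under both. The age and sex of the donors are not stated. The study calls the 3 libraries of a group biological replicates, but does not say whether each came from its own mouse.

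CSF1R is a receptor tyrosine kinase that binds CSF1 and IL-34 and is needed for the survival and proliferation of most macrophages. The GM-CSF receptor is built differently, from a ligand-binding alpha chain, Csf2ra, and a signalling beta chain, Csf2rb, which is shared with the receptors of IL-3 and IL-5 and works through the kinase JAK2 and the transcription factor STAT5. Mice carry a further beta chain, Csf2rb2, which arose by duplication of Csf2rb and serves IL-3 only. Csf3r, the receptor of G-CSF, is best known from neutrophils and their precursors, and is also made by monocytes and macrophages.

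The beta chain genes are near copies, which bears on how far their counts can be told apart. They lie head to head on mouse chromosome 15 (GRCm38), with Csf2rb2 on the minus strand at chr15:78282517-78305603 and Csf2rb on the plus strand at chr15:78325990-78351000, 20386 bases apart. Their longest coding transcripts in GENCODE M21 were 95.2% identical over 2628 aligned coding bases, and the longest run without a difference was 242 bases. Of all stretches of 50 bases in the Csf2rb transcript, 18.4% were also present in Csf2rb2, and of those of 150 bases 3.47% were. The most alike and the least alike stretch of 90 coding bases within 1 exon of both genes are shown to give both ends of this range. Capitals mark the bases that differ between the copies.
Csf2rb, coding bases 928 to 1017, chr15:78341658-78341747, plus strand: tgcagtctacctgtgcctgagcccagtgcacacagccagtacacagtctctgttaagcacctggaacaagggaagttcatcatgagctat
Csf2rb2, coding bases 928 to 1017, chr15:78291563-78291652, minus strand: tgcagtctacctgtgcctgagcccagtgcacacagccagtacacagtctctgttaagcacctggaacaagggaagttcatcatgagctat
Csf2rb, coding bases 308 to 397, chr15:78338897-78338986, plus strand: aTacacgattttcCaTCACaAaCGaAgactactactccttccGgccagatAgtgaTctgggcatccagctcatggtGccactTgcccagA
Csf2rb2, coding bases 311 to 400, chr15:78294345-78294434, minus strand: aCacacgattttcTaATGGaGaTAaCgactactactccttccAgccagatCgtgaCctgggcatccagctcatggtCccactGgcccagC
The first pair has 0 mismatches and the second pair has 16. A read from the first stretch cannot be assigned to either gene by its bases, and how the authors counted such reads was not given in the sources used here. The values of Csf2rb and Csf2rb2 are therefore given singly and as a sum.

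PU.1, the ETS family transcription factor of the myeloid lineage encoded by Spi1, binds purine-rich sites with the core GAGGAA, and the receptor promoters are shown because several of them are textbook examples of its targets. RefSeq promoters (GRCm38.p6, 250 bases before to 50 bases after the start of the gene) are given for 4 of the 6 genes. These are Csf1, Csf2ra, Csf2rb2 and Csf3r. Csf2rb had no entry, and the promoter of Csf1r is not reported here. GAGGAA or its reverse complement TTCCTC was searched on both strands, with matches that share bases counted separately, and is in capitals in the 250 bases before each start.
Csf2ra, chr19:61228419-61228668, minus strand: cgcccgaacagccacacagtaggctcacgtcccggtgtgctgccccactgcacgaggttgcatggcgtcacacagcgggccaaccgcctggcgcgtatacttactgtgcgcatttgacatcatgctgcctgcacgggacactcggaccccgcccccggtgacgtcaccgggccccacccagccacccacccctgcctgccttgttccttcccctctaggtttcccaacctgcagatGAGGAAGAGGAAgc
Csf2rb2, chr15:78305722-78305971, minus strand: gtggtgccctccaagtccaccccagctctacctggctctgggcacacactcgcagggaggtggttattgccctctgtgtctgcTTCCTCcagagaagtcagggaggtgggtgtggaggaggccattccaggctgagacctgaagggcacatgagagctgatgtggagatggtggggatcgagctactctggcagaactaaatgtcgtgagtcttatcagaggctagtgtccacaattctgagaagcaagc
Csf3r, chr4:126024409-126024658, plus strand: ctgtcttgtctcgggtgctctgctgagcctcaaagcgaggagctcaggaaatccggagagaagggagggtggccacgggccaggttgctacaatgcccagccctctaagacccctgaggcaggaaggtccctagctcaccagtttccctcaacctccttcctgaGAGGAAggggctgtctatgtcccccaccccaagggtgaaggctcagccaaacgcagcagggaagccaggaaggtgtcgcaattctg
Csf2ra held 2 matches in tandem, the first bases of which lie at -14 and -8 from the start. Csf2rb2 held 2 on the opposite strand, at -167 and, past the stretch shown, at 30. Csf3r held 1 at -86 and Csf1 held 0. Of all 32851 promoters of the same length, 28.3% held the motif, so a match is common. The starts that RefSeq gives for Csf2rb2 and Csf3r differ from those of the gene models in the count table. No binding was measured in these samples, and the matches describe these letters only.

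The libraries held between 61895190 and 157485640 counts, with the 3 deepest from GIT1 CKO. Levels are given in CPM, the counts of a gene set against the library total after TMM scaling, which adjusts that total for its composition. Across all genes, 123 of 16287 differed between the groups at an adjusted p under 0.05 (edgeR quasi-likelihood test, Benjamini-Hochberg adjustment), or 0.755%. The GIT1 fl/fl libraries did not resemble each other in base composition. The deviation of a gene from its mean over the libraries was correlated with its GC content at rho = 0.66 in GIT1 fl/fl library 2 and 0.20 in library 3, but at -0.42 in library 1 and between -0.35 and -0.39 in the 3 GIT1 CKO libraries. GIT1 fl/fl library 2 thus stood apart, and the members are also given without it or with the GC trend removed where this moves them. Git1 itself lay at 72.8, 74.5 and 73.8 CPM in GIT1 CKO against 71.9, 103 and 82.2 CPM in GIT1 fl/fl (edgeR adjusted p = 0.447), but counts over the whole gene do not check the deletion, since the deleted exons are not given. Lyz2, the gene whose promoter drives Cre, was lower in GIT1 CKO by 1.14 on the log2 scale (edgeR adjusted p = 0.0153). Summed counts of 4 genes of the Y chromosome, Ddx3y, Eif2s3y, Kdm5d and Uty, were at most 4 in the GIT1 CKO libraries and at least 1776 in those of GIT1 fl/fl. Xist, which female cells express, had 1051 to 1111 CPM in GIT1 CKO and was also present in every GIT1 fl/fl library, at 607, 226 and 384 CPM. The sex of the donors therefore cannot be told apart from the genotype in any comparison below, and whether a library pooled animals is not stated.

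The libraries expressed the markers of the labelled cell type. All 9 macrophage markers were detected, with a summed level of 9684 to 10281 CPM in GIT1 CKO against 8243 to 9659 CPM in GIT1 fl/fl. The most abundant, Adgre1, had 3966 to 4011 CPM against 2195 to 3254 CPM. The sum does not stand for each marker, since 4 had a log2 fold change above 0 and 5 below, with a median of -0.22 and 0 called. Cd163, named after its values were seen, had 54.8 to 57.5 CPM in GIT1 CKO against 74.7 to 91.4 CPM in GIT1 fl/fl (edgeR adjusted p = 0.0846). Fcgr1, named in the same way, lay in the other direction, at 453 to 505 CPM against 293 to 363 CPM (edgeR adjusted p = 0.101). Neither marker overlapped between the groups, as was so for 28.7% of all genes. Neutrophil markers, which matter most for Csf3r, summed to 13.3 to 17.3 CPM in GIT1 CKO against 11.0 to 26.1 CPM in GIT1 fl/fl, mostly from Mmp8, and their defining genes Ly6g and Camp were at 0 counts in all 6 libraries. Of the mast cell and basophil markers, Mcpt4, Tpsb2, Ms4a2 and Fcer1a were also at 0 throughout. Dendritic cell markers summed to at most 4.08 CPM and lymphocyte markers to at most 0.389 CPM. Osteoclast markers, of interest because M-CSF is also an osteoclast factor, summed to 299.9 to 333 CPM in GIT1 CKO against 160 to 309 CPM in GIT1 fl/fl, with Calcr at 0 and most of the sum from Atp6v0d2. Of these, Dcstamp and Tnfrsf11a, the first named after its values were seen, did not overlap between the groups. Dcstamp had 13.4 to 13.9 CPM in GIT1 CKO against 4.93 to 7.52 CPM in GIT1 fl/fl (edgeR adjusted p = 0.0631). Tnfrsf11a had 62.6 to 65.7 CPM against 41.1 to 50.1 CPM (edgeR adjusted p = 0.105). Both DESeq2 and the fit with the GC trend removed called these 2 genes higher. Other markers of the list lay the other way, and Acp5 and Ctsk were named after their values were seen. Acp5 had 12.9 to 16.6 CPM in GIT1 CKO against 17.9 to 19.6 CPM in GIT1 fl/fl, without overlap (edgeR adjusted p = 0.225). Ctsk had a log2 fold change of -0.57 (edgeR adjusted p = 0.312). Of the 6 osteoclast markers tested, 4 had a log2 fold change above 0 and 2 below. Stromal markers, of the cells that make CSF1 in bone marrow, summed to 33.7 to 38.4 and 27.8 to 33.9 CPM. Endothelial markers summed to 21.9 to 23.6 CPM in GIT1 CKO against 11.0 to 12.1 CPM in GIT1 fl/fl, and 1 of them, Pecam1, was called higher (log2 fold change 1.10, edgeR adjusted p = 0.0162), a gene that myeloid cells express as well. The part of these cells in the results below was not tested.

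**Figure D1:**
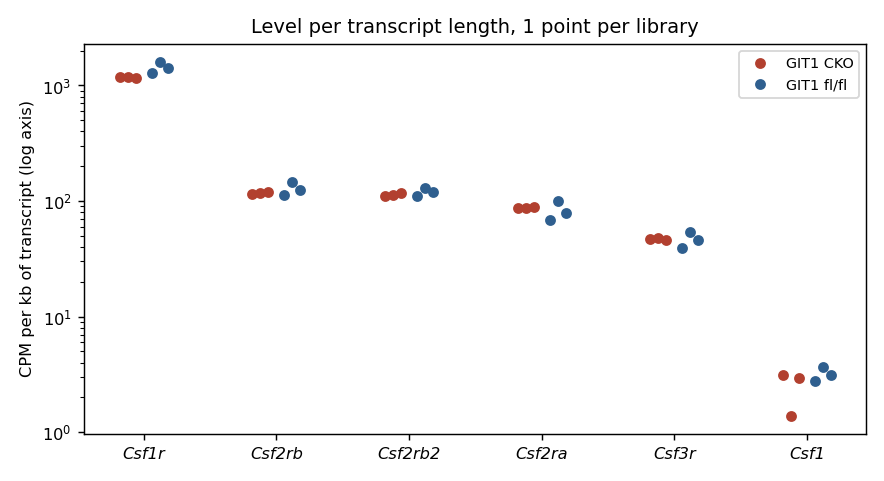
Level of each gene per kilobase of its longest coding transcript (CPM per kb, log scale), 1 point per library, GIT1 CKO and GIT1 fl/fl side by side. Csf1r lies at 1154 or more in all 6 libraries, the other 4 receptors between 39.6 and 147, and Csf1 at 3.65 or less.

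Csf1r was by far the most abundant of the receptors. Per kilobase of its longest coding transcript it stood at 1176 ± 19.9 CPM per kb in GIT1 CKO against 1432 ± 166 in GIT1 fl/fl (mean ± SD, n = 3 each), which was 9.60 to 11.5 times the level of Csf2rb in the same library. Csf1r alone took between 0.537% and 0.744% of all counts. Csf2rb and Csf2rb2 came next, at 118 ± 2.47 and 114 ± 3.42 CPM per kb in GIT1 CKO against 128 ± 17.0 and 119.8 ± 10.2 in GIT1 fl/fl. The library ranges of these neighbours overlapped, 114 to 147 for Csf2rb and 109.6 to 130.1 for Csf2rb2, so their order is not separated by the spread. Csf2ra followed with 87.4 ± 1.35 and 81.9 ± 15.6 CPM per kb, and its highest library, 99.1, was below the lowest of Csf2rb2. Csf3r had 47.2 ± 0.80 and 46.6 ± 7.44 CPM per kb, with its highest library, 54.4, below the lowest of Csf2ra, 68.6. The ligand gene Csf1 was last, at 2.48 ± 0.96 and 3.18 ± 0.44 CPM per kb. Csf2rb and Csf2rb2 were thus each higher than Csf2ra in every library, on the scale per length of GENCODE M21 transcripts. The counted gene models of Csf1r, Csf2ra, Csf2rb and Csf2rb2 have other bounds than those of M21. That of Csf2ra starts at 61224402 against 61223957 in M21, and that of Csf2rb ends at 78351000 against 78353847. The lengths are therefore approximate, and whether the order of Csf2ra and the beta chains holds for the counted models was not tested.

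**Figure D2:**
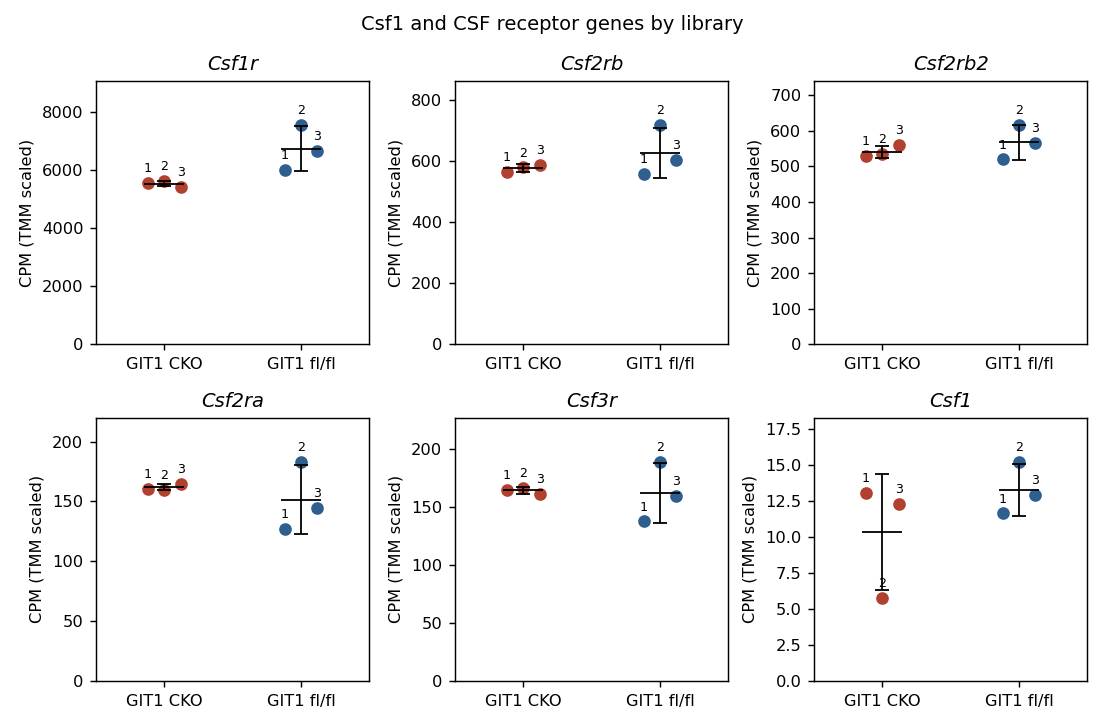
CPM of the 6 genes in each library, with the mean and SD of each group of 3, every axis starting at 0. Only for Csf1r do the groups not overlap (at most 5612 CPM in GIT1 CKO, at least 5989 in GIT1 fl/fl), and for Csf1 GIT1 CKO library 2 lies apart at 5.75 CPM.

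No member was called different between the genotypes at an adjusted p under 0.05, against 0.755% of all genes, and none met the rule of the study, a change of more than 1.5-fold at p under 0.05 before adjustment, against 8.62% of all genes. At an unadjusted p under 0.05 in the same fit 1 member, Csf1r, passed, in the lower direction, against 17.5% of all genes (8.45% lower and 9.06% higher). DESeq2 and limma-voom also called 0 of the 6, where they called 912 of 17867 and 145 of 16287 genes in the whole table. With so small a part of all genes called, 0 of 6 is no result about the members. The groups did not overlap for 1 of the 6, again Csf1r, while 28.7% of all genes had groups that did not overlap. The 5 receptor genes thus had intervals of the difference that lay between -0.53 and 0.44 on the log2 scale, and that of Csf1 was wider.

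Csf1r (chr18:61105572-61132149, plus strand) had 5542, 5612 and 5426 CPM in GIT1 CKO against 5989, 7547 and 6654 CPM in GIT1 fl/fl. Every GIT1 CKO library was lower than every GIT1 fl/fl library, a pattern that 15.1% of all genes shared in this direction. The log2 fold change was -0.28 (SE 0.104, 95% interval -0.53 to -0.036), that is 0.821 times the control level, with an unadjusted p of 0.0306 and an edgeR adjusted p of 0.243, so the difference did not pass the test across all genes. Removing the GC trend of each library brought the GIT1 fl/fl libraries together, at 6311, 6394 and 6499 CPM, and the difference to -0.15 (95% interval -0.23 to -0.057, edgeR adjusted p = 0.0785), with the groups still apart. Gene models that overlap Csf1r, Hmgxb3 and Mir6983, had counts equal to 0.44% of its own.

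Csf1, the ligand, is made by stromal cells in bone marrow and can also be made by activated macrophages. The gene (chr3:107741048-107760469, minus strand) gave 1718, 925 and 989 counts in GIT1 CKO against 728, 1023 and 799 counts in GIT1 fl/fl, or 13.04, 5.75 and 12.3 CPM against 11.6, 15.2 and 12.9 CPM. The groups overlapped, with 2 GIT1 CKO libraries inside the range of the controls and library 2 at less than the level of any other. The log2 fold change was -0.36 (SE 0.312, 95% interval -1.11 to 0.39, edgeR adjusted p = 0.559), and without GIT1 CKO library 2 it was -0.064 (edgeR adjusted p = 0.90). The counts are those of the cells' own transcript, not of the M-CSF protein in the medium. Set against its receptor in the same library, Csf1 had 2.35, 1.02 and 2.27 counts per 1000 counts of Csf1r in GIT1 CKO against 1.94, 2.02 and 1.94 in GIT1 fl/fl. The log2 ratio differed by -0.16 (exact permutation test, two-sided, p = 1), where 3 libraries against 3 cannot give a p below 0.1.

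Csf2ra, the alpha chain that gives the GM-CSF receptor its ligand (chr19:61224402-61228418, minus strand), had 161, 159.8 and 164.5 CPM in GIT1 CKO against 127, 183 and 144 CPM in GIT1 fl/fl. The GIT1 CKO libraries lay in a narrow band inside the wide range of the controls, and the log2 fold change was 0.09 (SE 0.144, 95% interval -0.25 to 0.44, edgeR adjusted p = 0.741). This is the member that depended most on the base composition of the libraries. Its longest coding transcript has 61.5% GC, against 53.3% to 54.5% for the other 5 members and a median of 49.4% over genes with counts. With the GC trend removed, Csf2ra had 172.5, 170.2 and 175 CPM in GIT1 CKO against 137, 142 and 142 CPM in GIT1 fl/fl. The groups then did not overlap, the log2 fold change was 0.30 (SE 0.045, 95% interval 0.19 to 0.41), and the gene was called (edgeR adjusted p = 0.0182), where this fit called 839 genes, or 5.15% (2.99% higher and 2.16% lower). Without GIT1 fl/fl library 2 the difference on the TMM scale was 0.28, and without library 1 it was -0.020.

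Because a ratio of counts in 1 library needs no scaling between libraries, Csf2ra was also set against the other receptors, a comparison chosen after its values were seen. Csf2ra had 29.0, 28.5 and 30.3 counts per 1000 counts of Csf1r in GIT1 CKO against 21.2, 24.3 and 21.7 in GIT1 fl/fl. It had 284, 275 and 279 counts per 1000 counts of Csf2rb in GIT1 CKO against 227, 255 and 239 in GIT1 fl/fl. In these 2 ratios every GIT1 CKO library was higher than every GIT1 fl/fl library, by 6.87 counts and by 39.4 counts on average. Against the other receptors the groups overlapped. Csf2ra had 304, 299 and 294 counts per 1000 counts of Csf2rb2 in GIT1 CKO against 244, 297 and 255 in GIT1 fl/fl, and 973, 957 and 1019 per 1000 counts of Csf3r against 921, 968 and 904. The exact permutation test (two-sided) gave p = 0.1 for the first 2 ratios, the smallest p this design can give, and p = 0.2 for the last 2, and all 4 had an adjusted p of 0.2 over the 4 ratios. The ratios compare a gene of higher GC content with genes of lower GC content, so the GC trend of the libraries is not removed from them, and the ratio in GIT1 fl/fl library 2, where the trend is steepest, was the highest of its group in all 4.

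**Figure D3:**
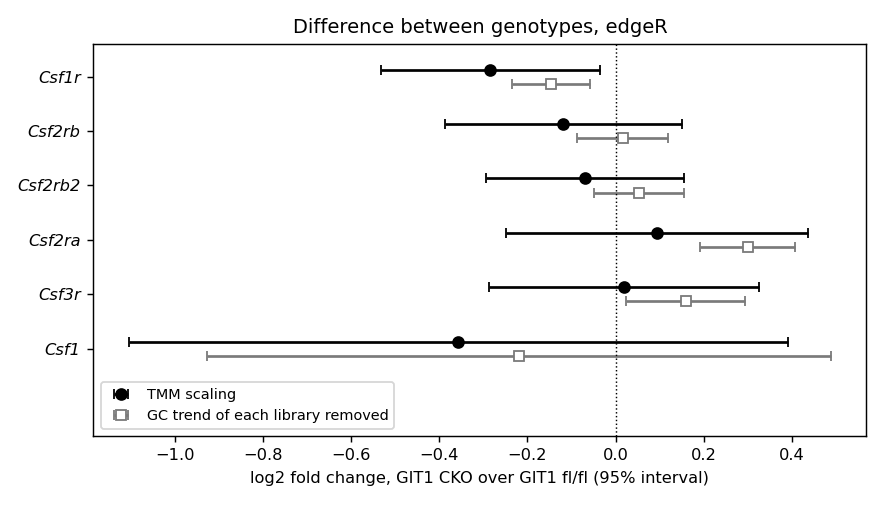
Log2 fold change of GIT1 CKO over GIT1 fl/fl for each gene with its 95% interval, from edgeR with TMM scaling (filled circles) and after removal of the libraries' GC trends (open squares). On the TMM scale only the interval of Csf1r, -0.53 to -0.036, leaves out 0, and with the GC trend removed those of Csf1r, Csf2ra and Csf3r do.

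Csf2rb, the shared beta chain, had 565, 580.4 and 589 CPM in GIT1 CKO against 558, 719.6 and 605 CPM in GIT1 fl/fl. The groups overlapped, the highest value was that of GIT1 fl/fl library 2, and the log2 fold change was -0.12 (SE 0.113, 95% interval -0.39 to 0.15, edgeR adjusted p = 0.59). Its copy Csf2rb2 had 528.5, 535 and 559 CPM in GIT1 CKO against 519.5, 617 and 567 CPM in GIT1 fl/fl, with a log2 fold change of -0.07 (SE 0.094, 95% interval -0.29 to 0.15, edgeR adjusted p = 0.703). The direction of both rested on GIT1 fl/fl library 2, without which the values were 0.017 and 0.019. With the GC trend removed they were 0.016 and 0.054, both with an edgeR adjusted p of at least 0.494. The groups of Csf2rb2 then narrowly did not overlap, at 551.74 CPM or more in GIT1 CKO against 551.65 or less in GIT1 fl/fl. In that fit 16% of all genes had this pattern with GIT1 CKO higher.

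Summed over both beta chains, the level was 1094, 1115 and 1148 CPM in GIT1 CKO against 1078, 1336 and 1172 CPM in GIT1 fl/fl (log2 fold change -0.095, SE 0.103, 95% interval -0.34 to 0.15, edgeR adjusted p = 0.635). Csf2rb2 took 48.3%, 48.0% and 48.7% of the summed counts in GIT1 CKO against 48.2%, 46.1% and 48.4% in GIT1 fl/fl. The share was nearly the same in 5 of the libraries, and GIT1 fl/fl library 2 was lower, with an exact binomial 95% interval of 45.8% to 46.5% that covers counting error only. The group difference of 0.743 percentage points gave p = 0.5 (exact permutation test, two-sided). Both genes hold microRNA models within them, Mir7676-2 and Mir7676-1, with 6 counts each over all libraries.

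Csf3r (chr4:126024550-126044440, plus strand) had 165, 167 and 161.5 CPM in GIT1 CKO against 138, 189 and 159.6 CPM in GIT1 fl/fl. The groups overlapped and their means, 164.5 and 162 CPM, were close (log2 fold change 0.02, SE 0.129, 95% interval -0.29 to 0.33, edgeR adjusted p = 0.943), and with upper-quartile scaling the value was -0.014. With the GC trend removed the values were 173, 175 and 168 CPM against 145, 161.5 and 156 CPM, which no longer overlapped, but the log2 fold change of 0.16 (95% interval 0.023 to 0.29) did not pass the test (edgeR adjusted p = 0.162). In that fit 16% of all genes had groups that did not overlap with GIT1 CKO higher. Among the neutrophil markers given above, 2 of 12 passed the filter on low counts, Mmp8 at 6.83 to 23.4 CPM and Prtn3 at 1.71 to 4.07 CPM, neither of them called, while Ly6g and Camp were at 0, and their part in the level of Csf3r was not tested.

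The 5 receptors shared a pattern over the control libraries. In GIT1 fl/fl each was highest in library 2, intermediate in library 3 and lowest in library 1, and so was Csf1. This order was found in 31.0% of all genes tested and in 40.3% of those with a mean of at least 20 CPM, and it is also the order of the GC trends of the 3 libraries. Among GIT1 CKO libraries the receptors varied by 1.55% (Csf2ra) to 3.0% (Csf2rb2) of their mean, as the coefficient of variation, against 8.55% (Csf2rb2) to 19.1% (Csf2ra) among GIT1 fl/fl libraries. The same imbalance held across the table, since over 6696 genes of at least 20 CPM its median was 4.06% in GIT1 CKO against 14.9% in GIT1 fl/fl, and 86.6% of these genes varied less in GIT1 CKO. Csf1 was the exception among the members, with 38.8% in GIT1 CKO against 13.8% in GIT1 fl/fl.

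Over the 6 libraries the beta chains followed each other most closely, with a Pearson's r of 0.96 between the log2 levels of Csf2rb and Csf2rb2, and Csf2ra followed Csf3r at 0.95. Csf1r and Csf2ra were at 0.25. These are descriptions over 6 libraries of 2 groups that share the GC trends above. Among 9058 genes compared, the profile most like that of Csf1r was that of Cabin1 (r = 0.999), followed by Trio (r = 0.998), and 745 genes exceeded 0.95. For Csf2ra they were Ifi35 and Rac2 (88 genes over 0.95), for Csf2rb Hgs and Stk10 (530), for Csf2rb2 Smarca4 and Smad1 (254), and for Csf3r Slc27a1 and Plbd2 (94). Csf1 had the fewest such genes, 11, led by Specc1l (r = 0.988) and Sh3pxd2a (r = 0.987). Sh3pxd2a had 17.0 CPM in GIT1 CKO library 2 and 68.3 to 87.2 CPM in the other 5 libraries, so that it shared with Csf1 the low value in that library.

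The other ligands of these receptors were barely present in the transcriptome. Csf2, Csf3, Il3 and Il5, which encode GM-CSF, G-CSF, IL-3 and IL-5, had 0 counts in all 6 libraries, and 3 counts, the limit that a count of 0 allows, would correspond to between 0.019 and 0.0485 CPM. This limit covers counting error only, and the table holds more zeros than counting gives. Among genes expected at 8 to 12 counts from the other libraries, 12.3% to 22.6% were listed at 0, and genes with 4 counts outnumbered those with 3 in every library. Il34, the second ligand of CSF1R, had 16, 39 and 0 counts in GIT1 CKO against 8, 5 and 0 in GIT1 fl/fl. Of 8 ligand genes, 3 were tested and 0 were called, with a median log2 fold change of -0.34 against 0.0085 over all genes tested. Besides Csf1 these were Flt3l, the ligand of FLT3, at 9.45 to 11.0 CPM in GIT1 CKO against 11.9 to 14.0 CPM in GIT1 fl/fl, and Kitl, stem cell factor, at 22.1, 25.1 and 27.0 CPM against 21.5, 9.95 and 15.8 CPM (log2 fold change 0.65, edgeR adjusted p = 0.284). The value of Kitl was 0.069 with the GC trend removed and 0.43 without GIT1 fl/fl library 2.

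Of 6 partner and related growth factor receptors, 3 were tested and 0 were called, with a median log2 fold change of -0.087. Il3ra, the alpha chain that pairs with either beta chain to bind IL-3, had 55.9, 57.6 and 63.5 CPM in GIT1 CKO against 49.9, 79.6 and 58.4 CPM in GIT1 fl/fl, which overlapped (log2 fold change -0.09, edgeR adjusted p = 0.808). Il5ra, the IL-5 counterpart, was at 0 in all libraries. Epor, the erythropoietin receptor, was low at 2.47, 2.44 and 2.95 CPM against 3.98, 4.39 and 3.84 CPM, with groups that did not overlap and an edgeR adjusted p of 0.154, and DESeq2 called it lower (adjusted p = 0.0442). Kit, the receptor of stem cell factor, was named with its values known. It had 0.501, 1.01 and 0.909 CPM in GIT1 CKO against 0.367, 0.417 and 0.356 CPM in GIT1 fl/fl, without overlap (log2 fold change 1.08, edgeR unadjusted p = 0.0226, adjusted p = 0.217). Like Epor, Kit met the rule of the study. Flt3 had at most 18 counts.

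**Figure D4:**
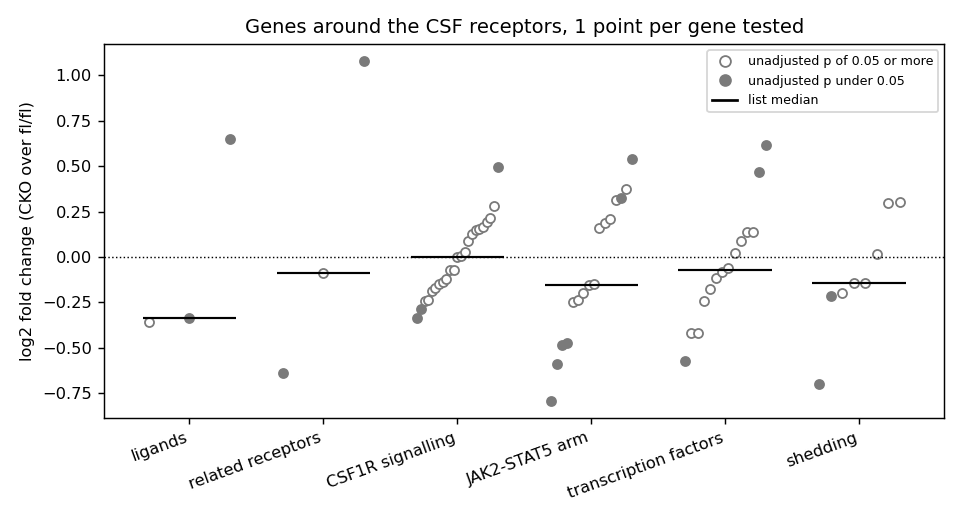
Log2 fold change of GIT1 CKO over GIT1 fl/fl of each tested gene in the lists around the receptors, 1 point per gene, filled where the unadjusted p was under 0.05, with a bar at the median of each list and a dotted line at 0. Points lie on both sides of 0 in every list, and no gene of these lists passes an adjusted p of 0.05.

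Downstream of CSF1R, 23 of 23 genes of proximal signalling were tested and 0 were called, with 1 higher and 2 lower at an unadjusted p under 0.05 and a median log2 fold change of 0.003. Tyrobp, which encodes the adaptor DAP12, had 764, 772 and 853 CPM in GIT1 CKO against 703, 1085 and 856 CPM in GIT1 fl/fl. Cbl, the ubiquitin ligase that sends activated CSF1R to lysosomes, had 382, 416 and 402 CPM against 526, 356 and 483 CPM. Both overlapped between the groups (edgeR adjusted p = 0.647 and 0.53), and without GIT1 fl/fl library 2 the log2 fold change of Cbl went from -0.19 to -0.31. The 3 genes with an unadjusted p under 0.05 were named after their values were seen. Fgr, a SRC family kinase, had 13.1 to 14.2 CPM in GIT1 CKO against 7.65 to 11.0 CPM in GIT1 fl/fl. The adaptor Shc1 had 77.2 to 80.4 against 90.7 to 110.4 CPM. Inpp5d, which encodes the lipid phosphatase SHIP1, had 269 to 296 against 324 to 373 CPM.

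Of the 16 genes of the JAK2-STAT5 arm that the beta chains use, all were tested and 0 were called, with 2 higher and 4 lower at an unadjusted p under 0.05 and a median log2 fold change of -0.15. Jak1, a kinase of other cytokine receptors and of CSF3R, had 414, 417 and 403 CPM in GIT1 CKO against 531, 415 and 518 CPM in GIT1 fl/fl (edgeR adjusted p = 0.32), and Mcl1, a survival gene, had 879, 877 and 902 CPM against 891, 507 and 654 CPM (edgeR adjusted p = 0.368). The log2 fold change of Mcl1 was 0.37, and it was 0.22 without GIT1 fl/fl library 2 and 0.61 without library 1, where the gene was called (edgeR adjusted p = 0.0467). Jak1 was called lower without GIT1 fl/fl library 2 (edgeR adjusted p = 0.0422). The remaining values in this paragraph belong to genes named after their values were seen. Stat5a had 26.7, 27.5 and 23.3 CPM in GIT1 CKO against 32.8, 39.3 and 36.1 CPM in GIT1 fl/fl, without overlap (log2 fold change -0.48, edgeR adjusted p = 0.144). Cish, a feedback inhibitor and classical target of STAT5, had 1.75 to 2.61 CPM against 3.03 to 3.53 CPM (log2 fold change -0.59, edgeR adjusted p = 0.228). Socs2, another such inhibitor, had 1.16 to 1.59 CPM against 1.86 to 2.64 CPM (log2 fold change -0.79, edgeR adjusted p = 0.187). Osm, a further STAT5 target, had 5.03 to 6.38 CPM against 6.74 to 9.46 CPM (edgeR adjusted p = 0.259). Bcl2l1, the survival gene of the same pathway, lay the other way, at 32.6 to 44.4 CPM in GIT1 CKO against 21.7 to 30.5 CPM in GIT1 fl/fl (log2 fold change 0.54, edgeR adjusted p = 0.207). None of these passed the test across all genes, where 17.5% of genes had an unadjusted p under 0.05.

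Among 14 transcription factors that act on myeloid receptor genes or downstream of CSF1R, 14 were tested and 0 were called, with a median log2 fold change of -0.073. Spi1, which encodes PU.1, had 438, 434 and 417 CPM in GIT1 CKO against 376, 479 and 413 CPM in GIT1 fl/fl (edgeR adjusted p = 0.914). Maf, which restrains macrophage self-renewal, had 903, 963 and 1012 CPM against 1061, 1065 and 994 CPM. Ets2 and Egr1, which respond to CSF1R signalling through the MAP kinases and were named after their values were seen, had 51.5 to 52.6 CPM and 13.9 to 17.1 CPM in GIT1 CKO, and 36.1 to 38.8 CPM and 9.63 to 10.6 CPM in GIT1 fl/fl. Neither overlapped between the groups, and their log2 fold changes of 0.47 and 0.62 had edgeR adjusted p-values of 0.0873 and 0.101. DESeq2 called both higher (adjusted p = 0.00384 and 0.00748). Tfec, a myeloid member of the MITF family also named after its values were seen, had 20.4 to 22.9 CPM against 26.4 to 40.8 CPM (edgeR adjusted p = 0.193).

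The extracellular parts of CSF1R and of membrane-bound CSF1 can be shed, a step that LPS speeds up and that ADAM17 carries out. Of the 8 genes of this machinery 8 were tested and 0 were called, with 0 higher and 2 lower at an unadjusted p under 0.05 and a median log2 fold change of -0.14. Adam17 had 468, 451 and 493 CPM in GIT1 CKO against 540, 184 and 427 CPM in GIT1 fl/fl. Adam10 had 207, 206 and 226 CPM against 240, 120 and 158 CPM. Both were lowest in GIT1 fl/fl library 2 (edgeR adjusted p = 0.671 and 0.526). Rhbdf1, a carrier of ADAM17 named after its values were seen, had 2.33 to 3.18 CPM against 4.01 to 4.88 CPM (log2 fold change -0.70, edgeR adjusted p = 0.158). Shedding acts on the proteins, which were not measured in these libraries.

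Over all of these lists, markers of cell types aside, the edgeR fit called no gene, DESeq2 called 5 and the fit with the GC trend removed called 7. Those of DESeq2 were Rhbdf1, Epor and Stat5a, which were lower, and Ets2 and Egr1, which were higher. Those with the GC trend removed included Tfec and Jak1, which were lower, and Fgr, Bcl2l1, Ets2 and Egr1, which were higher. Only Ets2 and Egr1 were called by both. In the whole table these fits called 912 of 17867 genes and 839 of 16287 genes, the latter 5.15%. The lists, in the order given above, held 3, 3, 23, 16, 14 and 8 genes tested with edgeR. The calls in the lists are therefore not read as a result about them.

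**Figure D5:**
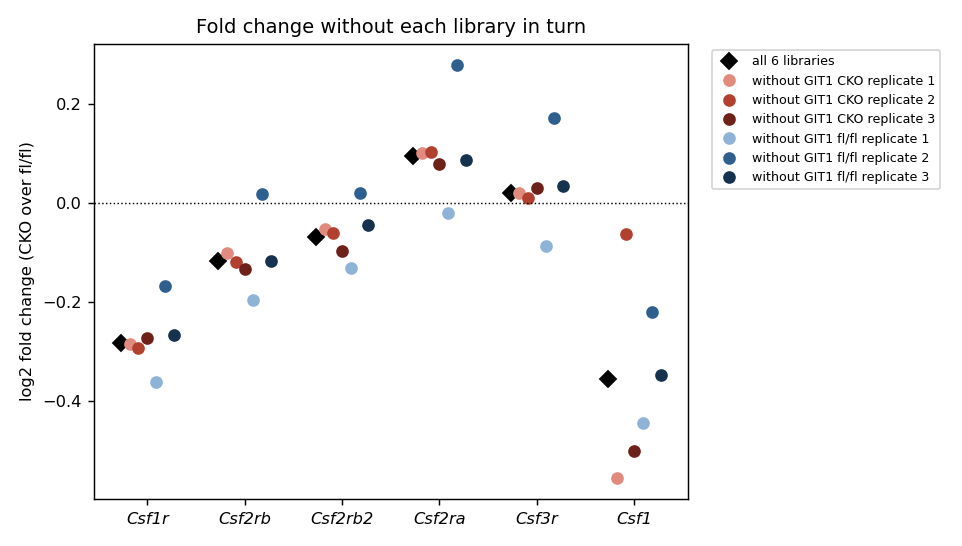
Log2 fold change of each gene with all 6 libraries and with each library left out in turn. Csf1r stays below 0 throughout (-0.36 to -0.17), Csf1 moves from -0.36 to -0.064 without GIT1 CKO library 2, and Csf2ra, Csf2rb, Csf2rb2 and Csf3r pass to the other side of 0 when 1 of the GIT1 fl/fl libraries is left out.

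Leaving out each library in turn left 0 of the 6 genes called every time. These fits called 3, 4 and 92 genes in the whole table without GIT1 CKO libraries 1, 2 and 3. They called 1159, 400 and 1 without those of GIT1 fl/fl. Where so few genes were called, 0 of 6 was nearly fixed in advance and says little about the members. The difference of Csf1r ranged from -0.36 to -0.17 (edgeR adjusted p 0.068 to 0.556). Those of Csf2ra and Csf3r ranged from -0.02 to 0.28 and from -0.087 to 0.17, those of Csf2rb and Csf2rb2 from -0.20 to 0.017 and from -0.13 to 0.019, and that of Csf1 from -0.56 to -0.064. Only for Csf1r and Csf1 was the direction the same without any 1 library. These are levels of RNA in bulk samples, in which fewer cells of a type and less RNA per cell cannot be told apart.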

How the data were processed

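RNA-seq libraries of LPS-treated GIT1 CKO and GIT1 fl/fl BMDMs (n = 3 each) were analysed from 1 deposited table of counts per gene, unnormalized whole numbers. The authors named fastp 0.17.1, HISAT2 2.1.0, DESeq2 1.18.1 and R 3.4.3 in their processing notes, and the counting tool and build were not given in the sources used here. The authors also deposited counts divided by a size factor per library, a depth-scaled signal, and 3 columns of their own comparison, a log2 fold change and its p-values, none of which was used. Total counts ranged from 61895190 to 157485640.

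Counts were fitted in R 4.3.3 with edgeR 4.0.16 (TMM, filterByExpr with a minimum of 10, robust quasi-likelihood test, group as the only term), and p-values were adjusted over all 16287 genes tested, with a threshold of 0.05. The common biological coefficient of variation was 0.277. Alternatives were DESeq2 1.42.0, limma-voom (limma 3.58.1), other scaling and filters, thinning to 61895190 counts, removal of each library's GC trend by a lowess offset (span 0.3), a replicate block and leaving out each library. Ratios were compared with exact permutation tests. Levels per length, GC content and the comparison of the beta chains used the longest coding transcript of GENCODE M21. It held 52403 of the table's IDs, 96.5% of them with the same start, so coordinates are given as GRCm38. The models of Csf1r, Csf2ra, Csf2rb and Csf2rb2 differ from M21 in their bounds. Promoters came from RefSeq. The members and lists were chosen with earlier results of these data known. Genes outside the members were named by a rule, the 2 most abundant tested genes of each list, the called ones and the 2 profiles most like each member, or, where said so, after their values were seen. Also named, outside this rule, were Flt3l and Kit, the other tested genes of their lists, with their values known. So were genes at or near 0 counts and those that check genotype and sex. P-values measure the spread between libraries, and intervals of shares cover counting error only. Some genes of the lists are not reported here by name.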

Additional observations from a re-analysis of the deposited data

How the results depend on the processing

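Csf1r and Csf1 kept their direction and stayed uncalled under all 17 alternatives (log2 fold change -0.36 to -0.15 and -0.56 to -0.064). The other members were uncalled too except Csf2ra, called with the GC trend removed (0.30, adjusted p = 0.0182), which made 1 member called. Directions turned with the GC trend removed for Csf2rb (0.016), Csf2rb2 (0.054), their sum (0.037), Il3ra (0.12), Tyrobp (0.0067) and Adam10 (-0.040), with the replicate block and GC removal together for the same genes (0.016, 0.053, 0.037, 0.12, 0.010 and -0.037), and with upper-quartile scaling for Csf3r (-0.014) and Spi1 (-0.0071). Without GIT1 fl/fl library 1 they turned for Csf2ra (-0.020), Csf3r (-0.087), Spi1 (-0.054), Mmp8 (0.17) and Col1a1 (-0.018), and without library 2 for Csf2rb (0.017), Csf2rb2 (0.019), their sum (0.018), Il3ra (0.15), Tyrobp (0.056) and Adam17 (-0.013). The cause was not tested. Genes called over the table numbered 912 with DESeq2, 839 with the GC trend removed, 1 with the replicate block, 69 with the block and GC removal, and 1 to 1159 with a library left out (3, 4 and 92 without GIT1 CKO libraries 1, 2 and 3, and 1159, 400 and 1 without those of GIT1 fl/fl). Calls in the pathway lists numbered 5 with DESeq2, 7 with the GC trend removed and 0 to 3 with a library left out. Leaving out 1 library gave ranges of -0.36 to -0.17 for Csf1r, -0.020 to 0.28 for Csf2ra, -0.20 to 0.017 for Csf2rb, -0.13 to 0.019 for Csf2rb2, -0.17 to 0.018 for their sum, -0.087 to 0.17 for Csf3r, -0.23 to 0.15 for Il3ra, -0.29 to 0.056 for Tyrobp, -0.013 to 0.62 for Adam17, -0.60 to 0.17 for Mmp8, 0.025 to 1.14 percentage points for the Csf2rb2 share and -0.37 to 0.23 for the log2 ratio of Csf1 to Csf1r, which turned without GIT1 CKO library 2. The ratios of Csf2ra, added after the data were seen, stayed higher in GIT1 CKO, by 6.27 to 7.82 counts per 1000 of Csf1r and 33.0 to 46.6 per 1000 of Csf2rb, and by 23.1 to 49.6 per 1000 of Csf2rb2 and 34.3 to 70.5 per 1000 of Csf3r. With no filter on low counts the median over all genes was 0.10.

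Same-numbered libraries did not deviate together (correlations of -0.045, 0.040 and 0.010 over 16287 genes), which gives no sign that the numbers pair the samples. The GC trends of the libraries enter these deviations, so the correlations cannot show that there is no pairing. A replicate block alone changed no call of a member, but that fit called 1 of 16287 genes and could hardly have changed one. Added to the fit with the GC trend removed, the block left Csf2ra uncalled (edgeR adjusted p = 0.122) and 0 members called. That fit called 69 of 16287 genes.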
